A study of Mus musculus with 6 samples.

Results

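The histone genes of the Hist clusters are the 69 of 25124 gene symbols in the deposited TPM table that begin with Hist1h, Hist2h, Hist3h or Hist4h. They were taken by name and sorted by the type of histone they encode, which gave 6 H1, 19 H2a, 19 H2b, 12 H3 and 13 H4 genes. By cluster, 55 belong to Hist1 on chromosome 13, 10 to Hist2 on chromosome 3, 3 to Hist3 on chromosome 11 and 1 to Hist4 on chromosome 6 (mm10). Transcript levels came from 6 RNA-seq libraries of RAW264.7, a mouse macrophage-like tumour line: 3 labelled E4BP4 knockout and 3 labelled control, all from untreated cultures in high-glucose medium with serum. E4BP4 is a bZIP transcription factor encoded by Nfil3. The sources used here do not say how the knockout was made or whether it is 1 clone or a pool. TPM is a read number divided by transcript length and scaled to the library, so levels of different genes can be compared.

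Histones package DNA into nucleosomes: H2A, H2B, H3 and H4 form the core particle, and H1 binds the linker DNA between particles. Genes of the clusters are mostly replication-dependent: their mRNA is made in S phase, has no introns, and ends not in a poly(A) tail but in a short conserved stem-loop that is bound by SLBP and cut by a complex with the U7 small nuclear RNA. Some of these genes also yield polyadenylated RNA, by reading past the stem-loop to a later signal or by splicing. Histone genes outside the clusters, such as H2afz, H3f3a, H3f3b and H1f0, are expressed through the cell cycle as ordinary polyadenylated mRNA. Per the labels' protocols these libraries were made from poly(A)-selected RNA, so the levels below are not those of histone mRNA as a whole. The selection was not complete. Listed RNAs that are not polyadenylated summed to 948 to 1012 TPM under the knockout label and 1107 to 1211 TPM in controls. How much stem-loop histone mRNA was carried over in the same way was not tested.

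The labels were checked against Nfil3 first. Nfil3 measured 105, 104 and 99.8 TPM under the knockout label, compared with 29.5, 29.9 and 31.0 TPM in control libraries, so its RNA was higher under the knockout label, and groups are named by label throughout. The libraries held 15615639 to 19867732 recovered reads. All 10 macrophage markers were detected, including Cd68, Spi1 and Csf1r, while the summed TPM of 5 B cell, 5 fibroblast and 5 epithelial markers was at most 1.08 in any library. Of 6 T cell markers only Lck reached the level for testing, at 4.08 and 2.54 TPM under the knockout and control labels, and Cd3g was at 0. Nothing in the labels says that replicates were separate cultures, so p-values reflect only differences among these libraries, and that spread may be technical.

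The 3′ stem-loop is printed for 6 members because it marks where the replication-dependent mRNA ends and where the deposited transcript models stop. It was searched as the histone 3′ stem-loop consensus in GENCODE M21 transcripts (GRCm38, the assembly of mm10), on the transcript's own strand. The 16 bases of the stem-loop are in capitals, with up to 5 flanking bases on each side in lower case, written 5′ to 3′.
Hist1h1c: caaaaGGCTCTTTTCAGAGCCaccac
Hist3h2a: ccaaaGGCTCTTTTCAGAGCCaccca
Hist1h1d: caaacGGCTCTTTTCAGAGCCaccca
Hist1h4i: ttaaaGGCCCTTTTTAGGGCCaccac
Hist1h3g: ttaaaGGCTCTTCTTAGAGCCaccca
Hist2h4: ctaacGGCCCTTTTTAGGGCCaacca
The stem-loop of Hist1h1c lies at chr13:23739512-23739527 on the plus strand and that of Hist3h2a at chr11:58955172-58955187 on the plus strand. Those of Hist1h1d, Hist1h4i, Hist1h3g and Hist2h4 lie at chr13:23555787-23555802, chr13:22040966-22040981, chr13:23535889-23535904 and chr3:96262939-96262954. In all 6 the stem lies 24 to 41 bases after the stop codon, in the 3′ untranslated region.

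The consensus was found in 46 of 69 members (66.7%) and in 22 of 21810 other protein-coding genes (0.101%). The letters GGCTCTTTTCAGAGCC were shared by 26 members, and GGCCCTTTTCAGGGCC by 7, all of them H4 genes. In 42 members the annotated stem-loop could be placed on the deposited transcript, and in 42 of these it ended within 10 bases past it. GENCODE carries many of the same genes further: 840 bases past the stem-loop for Hist1h1c, 1643 for Hist3h2a, 1861 for Hist1h2be and 2445 for Hist4h4. Reads from such extensions lie outside the deposited models, and what they would add to each level was not measured here. Hist2h2be and Hist1h2bc had no match in their annotated transcripts. Hist2h2be was counted over 2664 bases in 1 exon, and Hist1h2bc over 724 bases in 2 exons spread from 23684199 to 23692480 on chromosome 13. A missing match says only that these letters are not in the annotated transcript.

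Most cluster genes had low levels in these poly(A)-selected libraries as counted here. Of 69 members, 6 were at 0 reads in all 6 libraries, 53 had a mean above 0 but below 1 TPM, 10 reached a mean of 1 TPM and 4 a mean of 5 TPM. The 4 most abundant were Hist1h1c, Hist3h2a, Hist1h2bc and Hist2h2be, at 42.2, 12.2, 10.7 and 10.7 TPM over all libraries, and they held 75.6% of the summed TPM of the clusters. The median member stood at 0.226 TPM. The members at 0 were Hist1h1t, Hist1h2ba, Hist1h2bq, Hist1h2br, Hist1h4m and Hist3h2bb-ps. A count of 0 allows up to 3 reads, which is 0.0842 to 0.563 TPM depending on transcript length and library, counting error only. That range does not cover reads that may have been assigned to other copies, a limit described below.

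**Figure D1:**
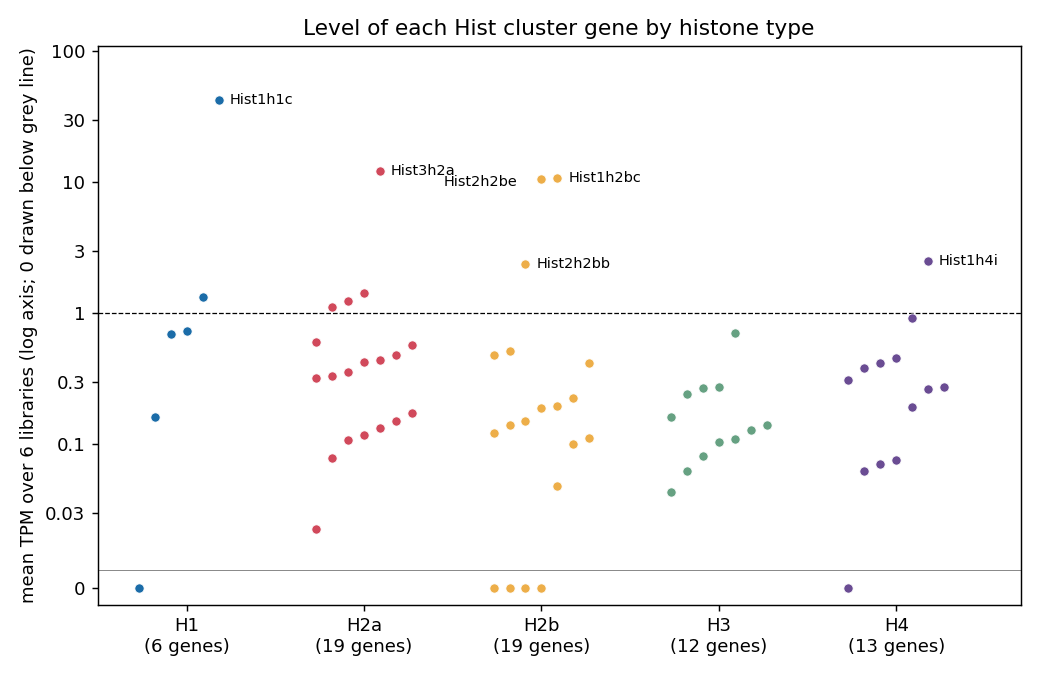
Mean TPM over the 6 libraries (log axis) of each of the 69 Hist cluster genes, in columns by histone type; each point is a gene, the dashed line marks 1 TPM and genes at 0 stand below the grey line. Hist1h1c is highest at 42.2 TPM, and no H3 gene reaches 1 TPM.

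The types differed in level. Each of H1 and H2a had 1 member above 5 TPM, H2b had 2, and H3 and H4 had 0. The highest H3 gene was Hist1h3g at 0.711 TPM and the highest H4 gene Hist1h4i at 2.51 TPM. Members with a GENCODE transcript of at least 1000 bases had a median of 0.42 TPM (18 members), against 0.191 TPM for the 51 with shorter ones, and all 4 members above 5 TPM were among the former. Members annotated over 100 bases past the stem-loop had a median of 0.383 TPM and those annotated at most 100 bases past it 0.191 TPM, with 23 members each. These are descriptions, since members share sequence and reads.

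Read sharing between copies limits most single values. Of 67 members with an annotated coding sequence, 54 shared over 50% of their 50-base coding windows with transcripts of other genes, and 15 shared all of them. Hist2h2be shared 0% and Hist1h1c 21.9%, with 2 other genes. Hist1h2bc shared 97.6%, with 14 genes, and Hist3h2a 100%, with 30, so their levels rest on how the authors assigned such reads or on their untranslated regions. Also, 4 pairs of members are given overlapping places on opposite strands in the deposited coordinates (Hist1h2ao with Hist1h2ap, Hist1h2bq with Hist1h2br, Hist2h2aa1 with Hist2h2aa2, and Hist2h3c1 with Hist2h3c2). RefSeq places the members of each pair at separate starts. Each of these 8 genes is listed with 2 copies and shares 100% of its coding windows with other genes, so the values within a pair are not independent.

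The comparison of libraries labelled knockout with controls asked whether any of these levels differed with the E4BP4 label. A gene was tested where at least 3 libraries reached 1 TPM, and log2(TPM + 1) values were compared with limma, with Benjamini-Hochberg adjustment over all 11257 genes tested. Of the members, 11 of 69 passed this filter, and each of them reached 1 TPM in at least 1 library of both groups. At an adjusted p under 0.05, 4 members were higher in the libraries labelled knockout (Hist1h1c, Hist1h2bc, Hist2h2bb and Hist3h2a), 1 was lower (Hist2h2be) and 6 were not called. Without knockout-labelled replicate 2 only Hist1h1c and Hist1h2bc were called higher. Over all genes tested, 26.7% were called higher, 23.4% lower and 50.1% in either direction. The share of tested members called, 5 of 11, was therefore near the background. The median log2 fold change was 0.43 over the 11 members and 0.02 over all genes tested. Fold changes are signed knockout minus control and understate the change of low genes. In bulk RNA, fewer cells that express a gene and less RNA per cell cannot be told apart.

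**Figure D2:**
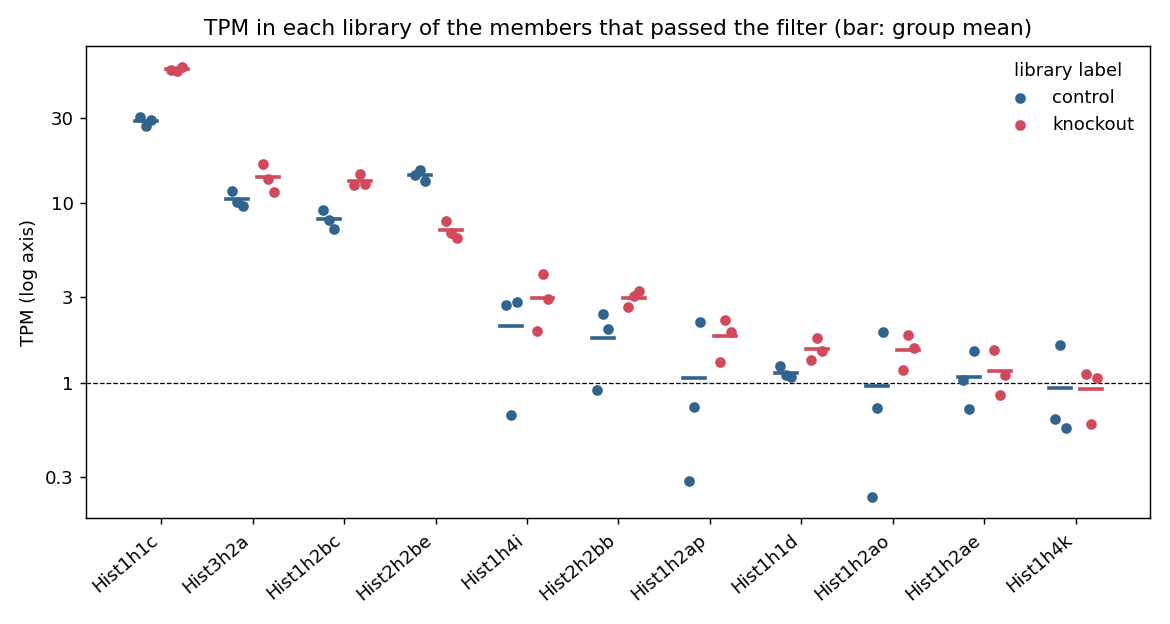
TPM (log axis) in each library of the 11 Hist cluster genes that passed the filter, with 3 control and 3 knockout-labelled libraries as points and the group mean as a bar; the dashed line marks 1 TPM. Groups stand apart for Hist1h1c, Hist1h2bc and Hist2h2be, and by less for Hist2h2bb and Hist1h1d, and points of the genes near 1 TPM are spread widely.

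Among linker histones, Hist1h1c, which encodes H1.2, rose close to 2-fold. It measured 55.3, 54.6 and 57.1 TPM under the knockout label, compared with 30.4, 26.9 and 29.1 TPM in control libraries, from 616, 663 and 672 against 345, 294 and 278 reads. All 3 libraries labelled knockout lay above all controls. The means were 55.7 ± 1.32 and 28.8 ± 1.76 TPM (SD, n = 3 per group), 1.94 as a ratio, with a log2 fold change of 0.93 (SE 0.05, limma adjusted p = 6.42e-07). Hist1h1c (NM_015786) is a gene of 1 exon at 23738807 to 23739531 on the plus strand of chromosome 13. The authors' deposited table gave it a log2 fold change of 0.94.

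Hist1h1d, which encodes H1.3, was far lower and was not called. It measured 1.34, 1.77 and 1.51 TPM under the knockout label, compared with 1.23, 1.11 and 1.07 TPM in control libraries, from 11 to 23 reads per library. The groups did not overlap, but the difference missed the threshold (log2 fold change 0.25, SE 0.10, limma adjusted p = 0.0773). Groups that do not overlap were found for 5 of the 11 tested members and for 58.5% of all genes tested. Hist1h1b and Hist1h1e, which encode H1.5 and H1.4, stood just outside the filter with means of 0.739 and 0.697 TPM, while Hist1h4k stood just inside it with 0.929 TPM. Hist1h1b measured 0.984, 0.977 and 0.699 against 0.642, 0.751 and 0.382 TPM in control libraries, with overlapping groups. Hist1h1e measured 0.749, 0.382 and 0.473 against 1.30, 0.593 and 0.678 TPM, so its groups overlapped. Hist1h1a had a mean of 0.162 TPM, and Hist1h1t, the testis form, was at 0.

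The 2 abundant H2b genes moved in opposite directions. Hist2h2be measured 7.98, 6.83 and 6.41 TPM under the knockout label, compared with 14.4, 15.2 and 13.3 TPM in control libraries, from 278 to 328 against 469 to 615 reads. Every library labelled knockout was below every control. The means were 7.07 ± 0.817 and 14.3 ± 0.975 TPM (SD, n = 3 each), with a control level 2.02-fold that under the knockout label (log2 fold change −0.93, SE 0.08, limma adjusted p = 1.40e-05). It lies on the plus strand of chromosome 3 from 96221072 to 96223738 (NM_178214), and the authors' deposited table gave −1.03. Hist1h2bc measured 12.7, 14.5 and 12.8 TPM under the knockout label, compared with 9.21, 8.02 and 7.19 TPM in control libraries, from 142 to 177 against 69 to 105 reads. Here every library labelled knockout was above every control. The ratio of means was 1.64, with a log2 fold change of 0.65 (SE 0.09, limma adjusted p = 1.91e-04) and 0.70 in the authors' deposited table. The order of these H2b genes thus turned: Hist2h2be was the higher in each control and Hist1h2bc in each library labelled knockout. The summed H2b level was 25.9 ± 1.08 TPM under the knockout label, compared with 27.2 ± 1.87 TPM in control libraries, and these ranges overlapped.

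Another H2b gene, Hist2h2bb, was called at low depth. It measured 2.65, 3.03 and 3.26 TPM under the knockout label, compared with 0.907, 2.42 and 2.0 TPM in control libraries, from 20 to 26 against 7 to 18 reads. Control replicate 1 was the lowest, and the groups did not overlap (log2 fold change 0.56, SE 0.19, limma adjusted p = 0.0333). The call was lost when knockout-labelled replicate 2 (limma adjusted p = 0.0784) or 3 (0.0904) was left out. All of its 50-base coding windows occur in 2 other genes, and the authors' deposited table gave an adjusted p of 0.191. The other 16 H2b members were not tested, 4 of them at 0. Hist1h2bg, the highest of these, measured 0.563, 0.258 and 0.666 against 0.551, 0.716 and 0.327 TPM in control libraries, with overlapping groups. Hist1h2be stood at 0.481 TPM as counted over 442 bases. In the authors' deposited table the same symbol carried another transcript, of 2477 bases, with a log2 fold change of −0.04 and an adjusted p of 0.96.

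Of the H2a genes, Hist3h2a was the most abundant. It measured 16.6, 13.7 and 11.6 TPM under the knockout label, compared with 11.7, 10.2 and 9.71 TPM in control libraries, from 95 to 129 against 65 to 93 reads. The groups overlapped, since replicate 3 under the knockout label lay just below control replicate 1. The difference passed in limma (log2 fold change 0.36, SE 0.11, adjusted p = 0.0238), but not in the authors' deposited table (0.38, adjusted p = 0.119). It was also lost when knockout-labelled replicate 1 was left out (limma adjusted p = 0.071, log2 fold change 0.24), or knockout-labelled replicate 2 (0.0522), or control replicate 2 (0.0592) or 3 (0.0744), and with no filter (0.0895).

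The other tested H2a genes were not called. Hist1h2ap measured 1.30, 2.25 and 1.91 TPM under the knockout label, compared with 0.283, 0.734 and 2.18 TPM in control libraries, so control replicate 3 lay among the former. Hist1h2ao, a copy with the same coding windows that the deposited coordinates place at the same locus, measured 1.18, 1.84 and 1.57 against 0.231, 0.721 and 1.93 TPM, with the same or nearly the same read numbers, such as 17 and 17 in replicate 2 under the knockout label. The log2 fold changes were 0.54 and 0.45 (limma adjusted p = 0.143 and 0.184). Without control replicate 3 the log2 fold changes were 0.90 and 0.79. Both genes then passed the filter only through the libraries labelled knockout, so these values are given as a description only. Control replicates 1 and 2 held 2 and 5 reads of Hist1h2ap, and 2 and 6 of Hist1h2ao. With all libraries, Hist1h2ap was called by limma-voom on recovered reads (adjusted p = 0.0396). Hist1h2ae measured 1.52, 0.857 and 1.11 against 1.03, 0.713 and 1.5 TPM, with overlapping groups (log2 fold change 0.06, SE 0.16, adjusted p = 0.776). The remaining 15 H2a genes had means of 0.0228 to 0.607 TPM.

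None of the 12 H3 genes passed the filter, and their counts were very low. Hist1h3g measured 0.663, 0.486 and 0.753 TPM under the knockout label, compared with 0.779, 0.81 and 0.772 TPM in control libraries, from 4 to 6 reads each. Hist1h3e, Hist1h3c and Hist1h3d followed with means of 0.276, 0.271 and 0.242 TPM and at most 3 reads in any library. Summed over 12 genes, H3 RNA was 1.99, 2.01 and 2.03 TPM under the knockout label, compared with 2.56, 2.50 and 2.90 TPM in control libraries, from 15 to 17 against 20 to 21 reads. These sums do not overlap, but they were not tested and rest on few reads.

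H4 genes were likewise low. Hist1h4i measured 1.95, 4.01 and 2.92 TPM under the knockout label, compared with 2.7, 0.66 and 2.83 TPM in control libraries, from 4 to 27 reads, with overlapping groups (log2 fold change 0.43, SE 0.30, limma adjusted p = 0.265). Hist1h4k measured 1.12, 0.586 and 1.06 against 0.626, 1.63 and 0.558 TPM in control libraries (log2 fold change 0.02, SE 0.21, limma adjusted p = 0.946). Hist1h4d and Hist2h4 had means of 0.456 and 0.422 TPM, from at most 5 reads in any library.

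**Figure D3:**
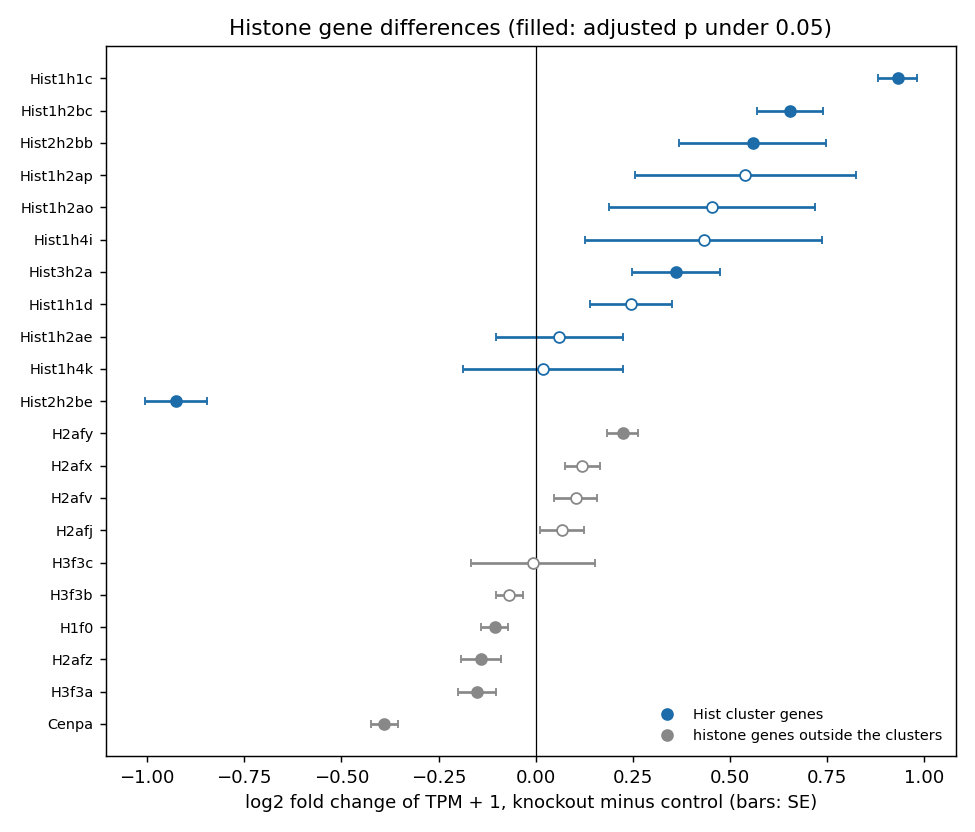
Log2 fold change of TPM + 1, libraries labelled knockout minus controls, with its SE, for the 11 tested Hist cluster genes (blue) and the 10 tested histone genes outside the clusters (grey); filled points have a limma adjusted p under 0.05. Hist1h1c (0.93) and Hist2h2be (−0.93) lie farthest from 0, and the genes outside the clusters lie between −0.39 and 0.22.

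The position of the genes gives further detail. Apart from Hist1h2al, the Hist1 genes lie between 21715711 and 23934913 on chromosome 13, about 29 Mb from Nfil3 on the same chromosome. The summed level of the Hist1 genes was 89.5 ± 1.62 TPM under the knockout label, compared with 55.1 ± 3.81 TPM in control libraries, of which Hist1h1c made up most. The Hist2 sum was 12.2 ± 1.52 against 18.8 ± 1.89 TPM, with Hist2h2be as its largest member. Hist1h2al, annotated as a pseudogene at 51200084 to 51203066, lies only 1.76 Mb from Nfil3. It measured 0.457, 0.638 and 0.535 TPM under the knockout label, compared with 0.277, 0.332 and 0.329 TPM in control libraries, from 21 to 32 against 13 to 15 reads. It did not reach the filter, and without a filter it was called higher (log2 fold change 0.23, limma adjusted p = 0.0187).

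**Figure D4:**
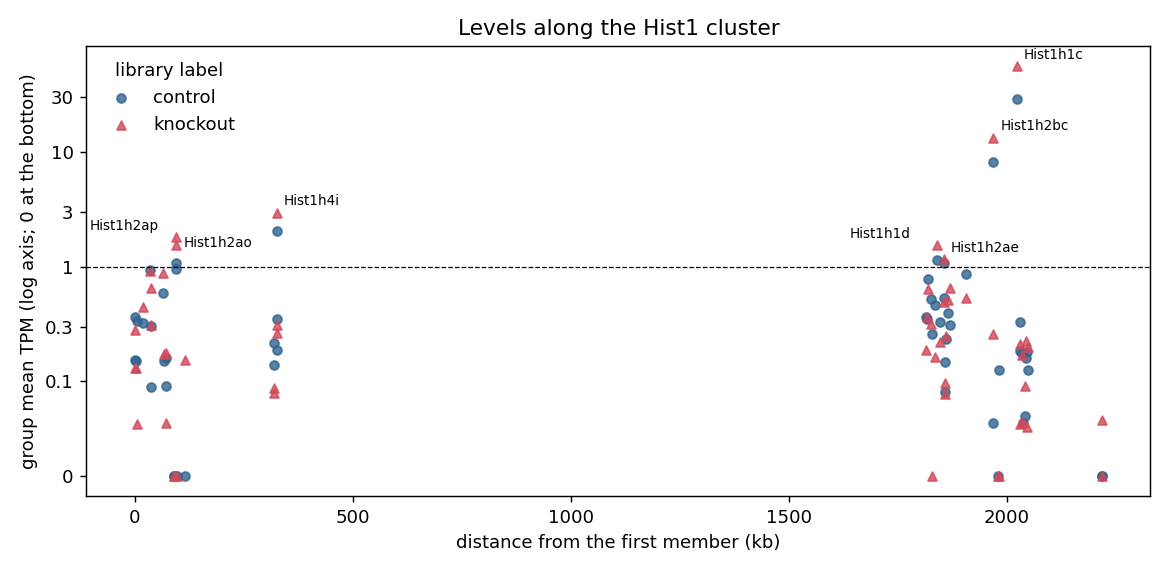
Group mean TPM (log axis) of 54 Hist1 genes against distance in kb from the first of them, for control (circles) and knockout-labelled (triangles) libraries; values of 0 are drawn at the bottom and the dashed line marks 1 TPM. Hist1h1c and Hist1h2bc stand above neighbours that mostly lie under 1 TPM.

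Head-to-head pairs of an H2a and an H2b gene, a common arrangement in these clusters with a shared promoter region, were unequal where a member was abundant. The deposited coordinates held 12 such pairs with 163 to 280 bases between the genes. Hist1h2bc averaged 10.7 TPM over all libraries, whereas Hist1h2ac, 239 bases away, averaged 0.152 TPM, a ratio of 70.6. Hist2h2be and its partner Hist2h2ac, 191 bases apart, differed 24.3-fold. Hist1h2ac had at most 4 reads in any library. Its deposited model ends 4 bases past the stem-loop, where GENCODE continues for 2010, so the models of this pair differ in kind. In the 7 pairs where both genes were detected and neither reached 5 TPM, the ratio was 1.31 to 2.41. Those genes had means of only 0.079 to 1.12 TPM, so a large ratio could hardly appear among them. Taking pairs by an abundant member favours a large ratio. Hist2h2ac had group means of 0.322 TPM under the knockout label, compared with 0.558 TPM in control libraries, and Hist1h2ac 0.261 and 0.0437 TPM; neither was tested.

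The upstream sequence of the 2 abundant members listed in the RefSeq promoter table (GRCm38.p6) is shown because E4BP4 binds D-box elements in promoters. The 250 bases before the start are written 5′ to 3′ on the gene's strand, with matches on either strand in capitals. The letters searched were the box CCAAT, the TATA box as TATAAA, the octamer as ATTTGCAT, and the D-box as TTATGTAA or else as TTACGTAA.
Hist1h1c, chr13:23738557-23738806, plus strand: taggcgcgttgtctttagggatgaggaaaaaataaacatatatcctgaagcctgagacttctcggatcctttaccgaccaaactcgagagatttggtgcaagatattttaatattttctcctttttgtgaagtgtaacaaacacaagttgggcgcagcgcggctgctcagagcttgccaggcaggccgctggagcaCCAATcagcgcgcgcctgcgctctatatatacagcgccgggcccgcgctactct
Hist3h2a, chr11:58954435-58954684, plus strand: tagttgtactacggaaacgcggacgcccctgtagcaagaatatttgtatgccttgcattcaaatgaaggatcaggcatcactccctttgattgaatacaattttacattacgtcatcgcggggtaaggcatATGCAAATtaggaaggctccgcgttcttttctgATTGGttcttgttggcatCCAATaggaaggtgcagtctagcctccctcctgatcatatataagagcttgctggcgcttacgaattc
Neither window holds either D-box string. The capitals mark CCAAT in Hist1h1c, and in Hist3h2a an octamer (ATTTGCAT on the other strand) and CCAAT on each strand. Neither window holds TATAAA. Only exact strings were searched, so other forms of the TATA box or the D-box would be missed.

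Of 69 members, 62 had a window in the table. CCAAT was found in 51 of them (82.3%) against 33.8% of all 32851 promoter windows, TATAAA in 29 (46.8%) against 12.4%, and the octamer ATTTGCAT in 14 (22.6%) against 1.60%. The D-box string TTATGTAA was found in 4 members (6.45%) against 0.819% of all windows, and TTACGTAA in 0 members against 0.113%. Those 4 were Hist1h3b, Hist1h3i and the duplicated pair Hist2h2aa1 and Hist2h2aa2, none of which passed the filter. Hist2h2be, Hist1h2bc, Hist1h3a, Hist1h3f, Hist2h4, Hist1h2al and Hist3h2bb-ps had no window. Windows of head-to-head neighbours, such as Hist1h2ag and Hist1h2bj, can overlap, and those of the copies Hist1h2bq and Hist1h2br have the same letters. Matches on either strand can thus be counted for both genes, so the windows are not independent. A match is a string of letters, not a bound site, and a missing match does not show that a site is missing.

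Histone genes outside the clusters spanned a wide range of levels. Of 15 on the list 4 were at 0 in all libraries, H2afy2 had a mean of 0.496 and H3f3c of 1.57 TPM, and H2afz was highest at 615 TPM. Of the list 10 were tested: 1 was higher (10%), 4 were lower (40%) and 5 were not called, with a median log2 fold change of −0.04. Over all genes tested the shares were 26.7% higher, 23.4% lower and 50.1% in either direction. H1f0, the replacement linker histone gene, measured 227.3, 232.4 and 224.5 TPM under the knockout label, compared with 247, 238.7 and 250.7 TPM in control libraries (log2 fold change −0.11, SE 0.03, limma adjusted p = 0.0302). All of its knockout-labelled values lay below the controls, opposite to Hist1h1c. Cenpa, the centromeric H3 gene, fell by 0.39 on the log2 scale, from 81.6 ± 0.409 to 62.1 ± 0.734 TPM (SD, n = 3 each, limma adjusted p = 1.39e-05). H2afy, which encodes macroH2A, rose by 0.22, from 55.3 ± 1.85 to 64.7 ± 1.38 TPM. H2afz and H3f3a fell by 0.14 and 0.15. The calls of H1f0, H2afz and H3f3a all ended when knockout-labelled replicate 1 was left out (limma adjusted p = 0.103, 0.0683 and 0.0904), which left 1 lower gene, Cenpa, and 2 were lower without knockout-labelled replicate 3 or control replicate 3. H2afx was called higher without control replicate 3 (adjusted p = 0.0108). H3f3b, H2afx, H2afj, H2afv and H3f3c were not called, with log2 fold changes of −0.07, 0.12, 0.07, 0.10 and −0.01.

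For H1, H2a and H3, cluster genes were a minor part of the histone RNA of their type in these poly(A)-selected libraries. The list of histone genes outside the clusters holds no H2b or H4 gene, so no share was taken for those types. For linker histones they made up 19.9 to 21.1% of the summed TPM under the knockout label, compared with 11 to 12% in the controls. For H2a the shares were 2.26 to 2.72% and 1.76 to 1.98%, and for H3, with Cenpa counted in, 0.333 to 0.342% and 0.384 to 0.444%. In these 3 types the shares of the groups did not overlap, and the same held for the levels of 58.5% of all genes tested. The summed H2a levels of the cluster genes nearly met. Their lowest under the knockout label was 20.04 TPM and their highest in controls 20.01 TPM. The H3 sums rest on 15 to 21 reads per library. They are given without a test, because the denominators share libraries and a few genes set each value.

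**Figure D5:**
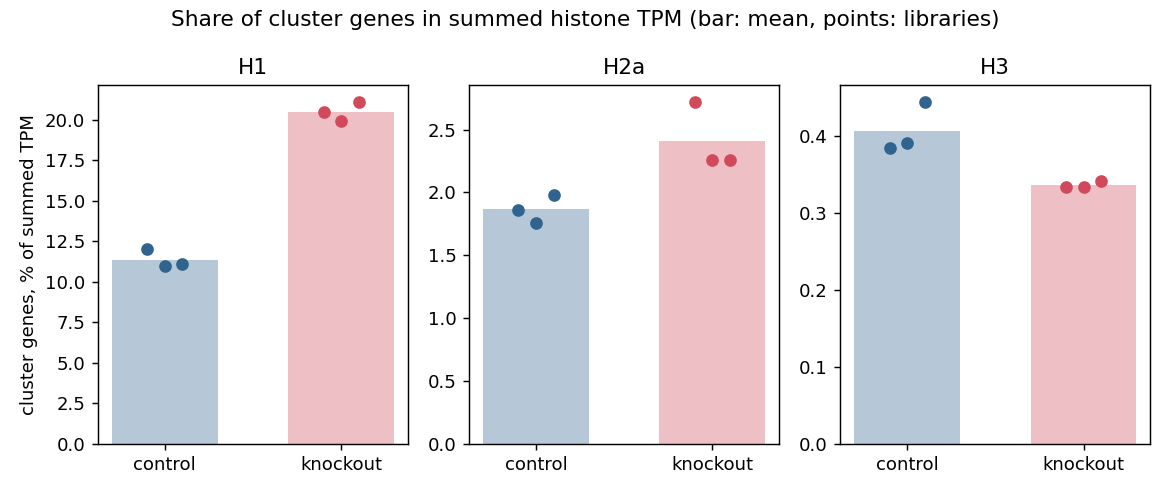
Share of Hist cluster genes in the summed TPM of cluster and other histone genes of the same type (percent, axes from 0), with 3 control and 3 knockout-labelled libraries as points and the mean as a bar. The H1 share is 11 to 12% in controls and 19.9 to 21.1% under the knockout label.

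Factors that make histone mRNA were called in both directions, at shares near those over all genes. Of 33 tested genes on the list of histone mRNA processing, 8 were higher (24.2%) and 6 lower (18.2%), against 26.7% and 23.4% over all genes, with a median log2 fold change of 0.04. Slbp, whose product binds the stem-loop, measured 34, 34.99 and 35.8 TPM under the knockout label, compared with 45.2, 49.0 and 48.6 TPM in control libraries. It was lower in every library labelled knockout (log2 fold change −0.44, SE 0.04, limma adjusted p = 4.16e-05). Cpsf3, which encodes the endonuclease that cuts histone pre-mRNA, rose by 0.18 (limma adjusted p = 0.00337). Npat and Casp8ap2, which act in histone gene transcription at the histone locus body, and Lsm10 and Lsm11, subunits of the U7 particle, were not called, with log2 fold changes of 0.12, 0.09, −0.06 and 0.15. Ccne2, which encodes cyclin E2, fell by 0.45, and the most abundant genes of the list, Papola (poly(A) polymerase) and Pabpn1 (nuclear poly(A)-binding protein), were not called at 0.10 and −0.09. Of 28 histone chaperone and supply genes 5 were higher (17.9%) and 6 lower (21.4%), against the same shares over all genes, with a median of 0.03. Ssrp1, a subunit of the FACT complex, rose by 0.50, Nap1l4, an H2A and H2B chaperone, by 0.30, and Npm1, nucleophosmin, by 0.29, while Set was not called at −0.03. Without knockout-labelled replicate 3 the number of lower chaperone genes was 3.

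Genes of the cell cycle were also compared. Of 52 tested DNA replication and S phase genes 12 were higher (23.1%) and 22 lower (42.3%), against 26.7% and 23.4% over all genes, with a median log2 fold change of −0.07. E2f2, which encodes an E2F transcription factor, fell by 0.56, Pcna, the replication clamp, by 0.13, and Mcm6, a helicase subunit, by 0.16. Without knockout-labelled replicate 2 the number of lower genes on this list was 13. Of 22 mitosis genes 0 were higher and 15 lower (68.2%) by limma, with a median of −0.36. Cdc20, an activator of the anaphase-promoting complex, fell by 0.79 and Aurka, a mitotic kinase, by 0.72. Ube2c fell by 0.56, and Top2a was not called at −0.12. The RNAs that are not polyadenylated summed to 948 to 1012 TPM under the knockout label, compared with 1107 to 1211 TPM in control libraries, of which Rn45s, the ribosomal RNA precursor, gave most, falling by 0.33. Of the 78 of these RNAs tested, 8 were higher (10.3%) and 11 lower (14.1%), both below the shares over all genes, with 5 higher without knockout-labelled replicate 2 or 3 and 13 without control replicate 1. Snord47 fell by 0.97, and Snord16a was not called. Snord91a, at 0 reads in the controls, passed the filter only through the libraries labelled knockout. Its fold change of 1.23 is therefore given as a description only. The sums of mitosis genes and of these RNAs moved in the direction of Hist2h2be and opposite to Hist1h1c and Hist1h2bc. The summed macrophage markers, at 4169 to 4313 against 3001 to 3228 TPM in control libraries, moved the other way, with Lyz2 higher and Fcgr1 lower. This sum does not describe most of the list. Of 9 macrophage markers tested, 3 were higher (33.3%) and 5 lower (55.6%), with a median log2 fold change of −0.17. The part of these levels in the histone results was not tested.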

How the data were processed

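Per the labels, poly(A)-selected RNA of 6 RAW264.7 libraries was sequenced (3 labelled E4BP4 knockout, 3 control). Per the submitters' processing notes the tools included STAR 2.7.5a and HOMER 4.11.1, besides bcl2fastq and DESeq2, with genome mm10; their roles are not stated there. The authors deposited TPM values for 25124 symbols, with transcript length and number of copies, and a second table of stabilized log2 values with their own log2 fold changes, p-values and adjusted p-values, whose header WT vs. TG was read as control against knockout. The handling of reads that match several copies is not stated in these sources. TPM times length fell on whole multiples of 1 step per library (100% of values checked within 0.1 of a whole number), which gave the recovered reads. Replicates differed by more than sampling noise (chi-square per degree of freedom of 1.74 to 5.50), so all were counted.

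Genes with at least 1 TPM in at least 3 libraries were compared as log2(TPM + 1) with limma 3.58.1 in R 4.3.3, with a mean-variance trend, a two-sided test, no covariate and Benjamini-Hochberg adjustment over all genes tested. The procedure was run on simulated data in which a small set of genes changed by a fixed fold. That setting differs from these data, so it does not give error rates for them. Members and lists were chosen with earlier results of these data known. Values in every library are given for up to 4 most abundant members of each type. From the other lists, Slbp, Npat, Casp8ap2, Lsm10, Lsm11, Cpsf3 and all tested histone genes outside the clusters were named by rule, together with the 2 of smallest adjusted p and the 2 most abundant genes of each list of a process. Alternatives were other pseudocounts, filters, scaling, limma-voom, the stabilized values, a replicate block and leaving out each library. Protein sequences were not used here.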

Additional observations from a re-analysis of the deposited data

How the results depend on the processing

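The calls and directions of Hist1h1c, Hist1h2bc and Hist2h2be held under all 14 alternatives. Those of Hist3h2a and Hist2h2bb did not: without a filter on low values their limma adjusted p was 0.0895 and 0.115. Without a filter 63 cluster genes were tested rather than 11. Of all 19482 genes tested in that setting, 2742 were higher and 2521 lower. The count of cluster genes called lower was then 3 rather than 1, by adding Hist1h2bm and Hist1h3f at under 1 TPM. The 5 then called higher were Hist1h1c and Hist1h2bc with Hist1h2al, Hist1h2ak and Hist1h4n, which had 1 read in each library labelled knockout and 0 in the controls. Leaving out each library gave 2 to 5 higher (main 4, lowest without knockout replicate 2) and 1 lower. These counts include Hist1h2ap and Hist1h2ao without control replicate 3, where both passed the filter only through the libraries labelled knockout. A replicate block gave 5 higher and 1 lower cluster genes, with Hist1h2ap called (adjusted p = 0.0416), and 2 rather than 4 lower histone genes outside the clusters. The replicate numbers share only a number, since deviations of same-numbered libraries correlated at −0.06 to 0.00.

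For histone genes outside the clusters, 2 were lower without a filter, and 2 were higher with a 5 TPM filter or with limma-voom; leaving out each library gave 1 to 2 higher and 1 to 4 lower. Limma-voom called 13 of 33 processing genes and 8 of 28 chaperone genes higher, against 3310 of all 11257 genes tested. Among RNAs without a poly(A) tail it called 5 higher and 4 lower. The stabilized values gave 4 higher and 5 lower of those RNAs, and a 5 TPM filter gave 2 higher. Leaving out each library gave 5 to 13 of them higher, 13 to 19 S phase genes lower (22 with all libraries, lowest without knockout replicate 2) and 3 to 6 chaperone genes lower. Genes not called that changed sign were Hist1h4k (−0.00021 with a pseudocount of 5, −0.0013 with stabilized values, and −0.12 to 0.15 in the 3 of 6 leave-one-out settings where it passed the filter), Hist1h2ae (−0.0704 to 0.201), H3f3c (−0.12 to 0.16) and Lsm10 (−0.134 to 0.0295). The cause of these changes was not tested. Most H3 and H4 genes had at most 6 reads in any library, which limits their values.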
